A study of Mus musculus with 5 samples.

Results

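The genes described here are Inha, Amh, Amhr2, Fshr and Foxl2, 5 of the 23857 genes in the deposited table. They were chosen by name, with the comparison of control and Esr1 conditional knockout libraries in view and with Inha noted as higher in the latter. Their levels across that comparison are therefore given as a description. The fit over all genes covers them too, but its calls for them support nothing here. Expression was measured by bulk RNA sequencing in YFP-positive stromal cells that were sorted out of the oviduct, or fallopian tube, of young adult females, with 1 mouse per library. The controls were Pdgfra-Cre;R26Y mice 2 and 3, and the other group was Pdgfra-Cre;Esr1(fl/fl);R26Y mice 1, 2 and 3. All 5 mice thus carried Pdgfra-Cre, a recombinase under the promoter of the mesenchymal receptor gene Pdgfra, and the R26Y reporter, which makes YFP after recombination. Only the second group carried floxed Esr1, the gene of estrogen receptor alpha. YFP marks a history of Cre activity and not the present cell type.

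Granulosa cells surround the oocyte in the ovarian follicle. Under follicle-stimulating hormone, which acts through the receptor encoded by Fshr, they make estradiol and inhibin. Inha encodes the alpha subunit of inhibin, which pairs with a beta subunit shared with activin and opposes activin signalling. Amh encodes anti-Müllerian hormone, made by granulosa cells of growing follicles and by fetal Sertoli cells. Its receptor gene, Amhr2, is expressed in granulosa cells and also in the mesenchyme of the Müllerian duct, from which the oviduct and uterus form. AMH signals with type I receptors of the BMP family to SMAD1, SMAD5 and SMAD9. Foxl2 encodes a forkhead transcription factor that maintains granulosa cell identity and is also known from Müllerian mesenchyme.

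The upstream windows of both receptor genes are shown because they hold the only matches to the motifs searched in the 4 member windows at hand. No window for Amh was used here. Windows are the 250 bases before a RefSeq transcript start (GRCm38.p6). The Amhr2 window lies at chr15:102445117-102445366 on the plus strand, and that of Fshr at chr17:89200676-89200925 on the minus strand, both written 5′ to 3′ along the gene. Capitals mark CCAAGGTCA, a binding sequence of SF-1 (the product of Nr5a1), in Amhr2 and CACGTG, the E-box bound by USF factors, in Fshr.
Amhr2: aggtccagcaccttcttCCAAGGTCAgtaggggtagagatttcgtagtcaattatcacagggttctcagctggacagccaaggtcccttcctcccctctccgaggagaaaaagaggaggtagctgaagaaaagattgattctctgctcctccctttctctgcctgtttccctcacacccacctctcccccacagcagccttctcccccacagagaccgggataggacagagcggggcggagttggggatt
Fshr: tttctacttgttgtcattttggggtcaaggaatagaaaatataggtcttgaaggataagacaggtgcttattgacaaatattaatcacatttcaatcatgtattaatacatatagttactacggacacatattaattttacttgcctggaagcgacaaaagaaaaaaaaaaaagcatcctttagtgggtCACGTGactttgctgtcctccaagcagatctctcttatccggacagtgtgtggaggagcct
The SF-1 sequence began 233 bases before the Amhr2 start, and the E-box 61 bases before that of Fshr. Searched on both strands, CCAAGGTCA was found in 0.463% of the 32851 windows in the table and CACGTG in 6.02%. The palindromic estrogen response element GGTCANNNTGACC was in 0.0639% of windows and in 0 of the 4 member windows, those of Inha, Amhr2, Fshr and Foxl2. The window listed for Inha starts inside the annotated gene, and that for Foxl2 lies within its gene. A match is a description of these letters and no evidence of binding. Nr5a1 measured 2.62 and 6.65 TPM in control libraries against 8.28, 14.2 and 10.3 TPM in the knockout libraries. Usf1 stayed within 24.2 to 30.3 TPM over the 5 libraries. Usf2 had 32.4 and 29.9 TPM in the controls and 29.7, 35.9 and 38.6 TPM in knockout mice 1, 2 and 3. The part of these factors in the levels of Amhr2 and Fshr was not tested.

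In GENCODE M21 (GRCm38, the assembly of mm10) Inha is a gene of 2 exons on chromosome 1, from 75507077 to 75510366. Amh has 5 exons on chromosome 10, from 80805243 to 80807648. Amhr2 spans 102445367 to 102454633 on chromosome 15, Fshr 88984952 to 89200675 on chromosome 17, and the single-exon Foxl2 98955288 to 98958543 on chromosome 9.

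In each sentence values follow the mouse numbers, 2 and 3 for the controls and 1, 2 and 3 for the knockout group. Values are TPM, which divides reads by transcript length and sums to 1000000 in every library. Comparisons of level between genes are approximate, because the counter and annotation behind the lengths are not given. Esr1, looked at beside the labels, had 83.3 and 77.6 TPM in its control libraries, and 28.9, 85.0 and 170 TPM in the knockout ones. It was thus lower only in mouse 1, and "knockout" below means the libraries labelled so. A level for the whole gene cannot show whether its floxed part was removed. These values therefore do not tell whether the knockout worked in any library. The depth, estimated from the steps between low values, was 66.5% of control mouse 2 in control mouse 3 and 48.4%, 82.8% and 67.3% in knockout mice 1, 2 and 3. Stromal Dcn stood between 6764 and 10110 TPM, but Ovgp1, an oviductal secretory epithelial gene, was also abundant, at 2273 and 2463 TPM in the controls and 1522, 10655 and 11258 TPM in knockout mice 1, 2 and 3. In bulk samples, fewer cells of a type and less RNA per cell cannot be told apart. Nothing in the labels beyond the mouse numbers says how the animals were matched, for example by cycle stage.

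Both hormone genes were higher in every knockout library than in either control. Inha was at 9.39 TPM in control mouse 2, 38.7 TPM in control mouse 3, and 65.7, 111 and 136 TPM in knockout mice 1, 2 and 3. The groups did not overlap, but the controls differed from each other 4.12-fold, while the lowest knockout library exceeded the higher control by 1.70-fold. The control mean was 24.1 ± 20.7 TPM (SD, n = 2) and the knockout mean 104 ± 35.9 TPM (SD, n = 3), a log2 fold change of 2.31 with a standard error of 0.56 on the log2(TPM + 1) scale. Leaving out control mouse 2 gave a log2 fold change of 1.35, and leaving out control mouse 3 gave 3.28.

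Amh reached 1.76 and 4.73 TPM without floxed Esr1 and 13.7, 23.8 and 14.6 TPM with it. Its lowest knockout library lay 2.90-fold above the higher control, a wider gap than for Inha, although the controls again differed 2.69-fold. On the log2 scale the difference was 2.17 (SE 0.38), and it was 1.64 without control mouse 2. About 39.3 reads lay behind the lowest value, in control mouse 2, and about 442 behind the highest, in knockout mouse 2. Sf3a2, a splicing factor gene that ends 317 bases before Amh, measured 58.4 and 52.1 TPM in control libraries against 49.7, 66.7 and 66.0 TPM in the knockout libraries, with overlapping groups.

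The receptor genes differed in how they varied. Amhr2 had 8.89 and 7.59 TPM in its control libraries, and 17.7, 18.2 and 17.1 TPM in the knockout ones. Within each group its values lay close together, at 8.24 ± 0.92 TPM for the controls (SD, n = 2) and 17.7 ± 0.53 TPM for the others (SD, n = 3). Its log2 fold change of 1.02 (standard error 0.18) stayed between 0.92 and 1.12 when each library was left out in turn.

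Fshr had the lowest level of the members in every library. It reached 0.83 and 2.56 TPM without floxed Esr1 and 6.32, 7.38 and 5.88 TPM with it. The knockout libraries were close to each other and the controls 3.10-fold apart, with about 26.1 and 53.8 reads behind them. On the log2 scale it differed by 1.56 (SE 0.33), and 1.08 without control mouse 2. Only 1 control library reached 1 TPM, so Fshr met the filter for testing through the knockout libraries, while the other 4 members reached 1 TPM in all 5. Lhcgr, the luteinizing hormone receptor gene and the nearest gene before Fshr on chromosome 17 when pseudogenes are left out, measured 0.72 and 7.70 TPM in control libraries against 6.46, 14.8 and 9.66 TPM in the knockout libraries, so that its groups overlapped.

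Foxl2 was at 17.0 and 16.6 TPM in control mice 2 and 3. In knockout mice 1, 2 and 3 it was at 21.1, 39.3 and 36.5 TPM. Mouse 1 lay only 1.24-fold above the higher control, close to the controls and apart from mice 2 and 3. On the log2 scale the difference was 0.85 (SE 0.28). Foxl2os, a non-coding RNA on the opposite strand whose annotation overlaps Foxl2 by 12 bases, had 13.8 and 13.0 TPM in its control libraries, and 10.2, 15.2 and 18.1 TPM in the knockout ones. Whether reads were counted by strand is not given in the sources used here, so reads in the shared bases cannot be assigned.

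**Figure D1:**
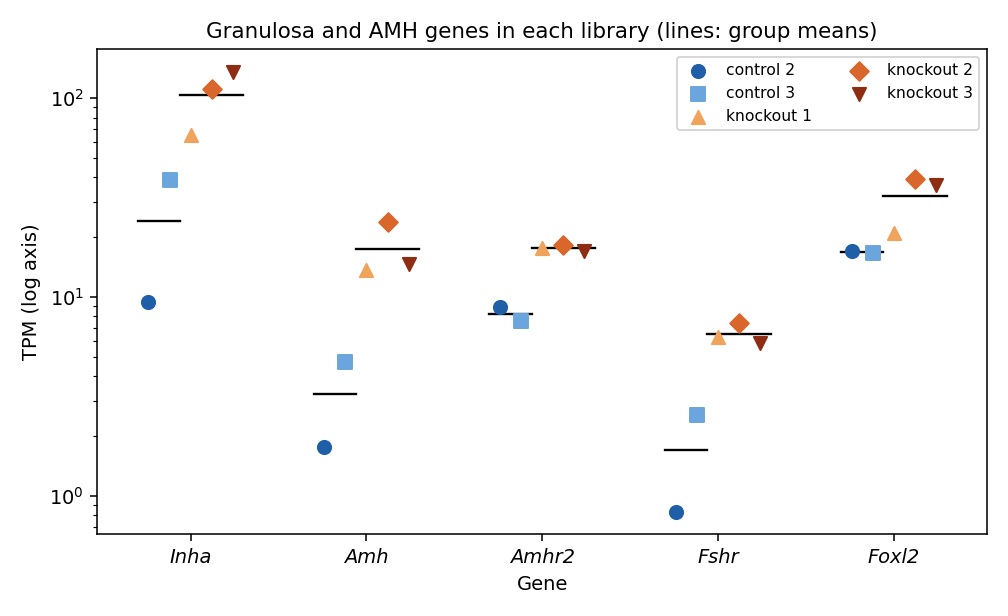
TPM of the 5 genes in each library, on a log axis. Points are single mice and horizontal lines the means of the 2 controls and the 3 knockout libraries. Inha, Amh and Fshr differ between control mice 2 and 3, whereas Amhr2 (8.89 and 7.59 TPM) and Foxl2 (17.0 and 16.6 TPM) are close there, and every knockout point lies above both controls of its gene.

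The order of the levels was not the same in every library. Foxl2 was the highest member in control mouse 2, at 17.0 TPM against 9.39 TPM for Inha and 8.89 TPM for Amhr2, and these last values lay closer together than the controls' own spread in Inha. In control mouse 3 and in all 3 knockout libraries Inha was the highest and Foxl2 the second. Amhr2 exceeded Amh in every library but knockout mouse 2, where Amh was at 23.8 TPM and Amhr2 at 18.2 TPM. In knockout mouse 3 the pair, at 14.6 and 17.1 TPM, differed by less than Amh did between knockout mice.

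Ratios within a library varied less between Inha, Amh and Fshr, and between Amhr2 and Foxl2, than across these sets. That difference rested on control mouse 2. Over the 5 libraries Inha spanned 14.5-fold, Amh 13.6-fold and Fshr 8.93-fold. The ratio of Inha to Amh, in contrast, ran only from 4.67 to 9.34, that of Inha to Fshr from 10.4 to 23.2, and that of Fshr to Amh from 0.31 to 0.54, which are spans of 2.00-fold, 2.23-fold and 1.75-fold. Amhr2 and Foxl2 spanned 2.40-fold and 2.36-fold. The ratio of Amhr2 to Amh was 5.06 in control mouse 2 and between 0.76 and 1.60 in the other libraries, and that of Foxl2 to Amh was 9.70 in control mouse 2 and between 1.54 and 3.52 elsewhere. Amhr2 was thus present at 8.89 TPM in the library in which Amh was lowest. Amhr2 and Foxl2 kept a ratio of 0.46 to 0.52 in 4 libraries and stood at 0.84 in knockout mouse 1, where Foxl2 was nearer to the controls, a span of 1.84-fold. Ratios of Amhr2 or Foxl2 to Amh or Inha spanned 6.30-fold to 7.53-fold. For Inha too the highest ratios were in control mouse 2. Foxl2 to Inha was 1.82 there and 0.27 to 0.43 elsewhere, and Amhr2 to Inha 0.95 and 0.13 to 0.27. These ratios describe 5 libraries and were chosen after the values were seen.

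**Figure D2:**
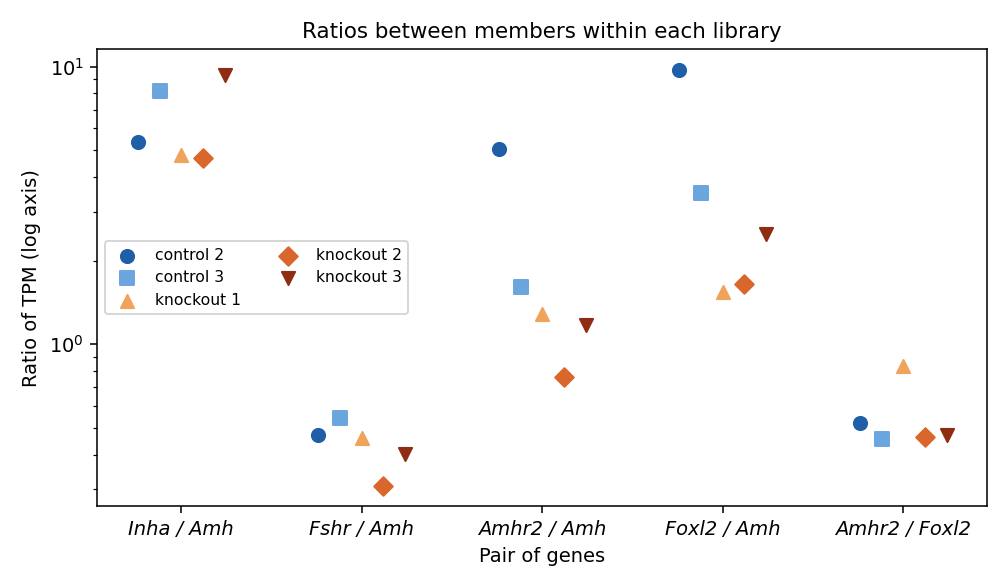
Ratios of TPM between pairs of the members in each library, on a log axis, with 1 point per mouse. Inha to Amh and Fshr to Amh vary by at most 2.00-fold over the libraries, while control mouse 2 stands above the others for Amhr2 to Amh (5.06) and Foxl2 to Amh (9.70).

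Across all genes, limma on log2(TPM + 1) called 5 of 19292 tested genes at an adjusted p under 0.05, or 0.0259%, 2 higher (0.0104%) and 3 lower (0.0156%) in the knockout libraries. Of the 5 members, 0 were among them, and 5 of 5 had all knockout libraries above both controls, as did 11.9% of tested genes. At an unadjusted p under 0.05, 3.70% of tested genes were higher and 9.87% lower. Knockout mouse 1 stands apart from the other knockout libraries and was the only knockout library with Esr1 below both controls. A fit without it therefore leaves knockout libraries in which Esr1 was not lower (85.0 and 170 TPM against 83.3 and 77.6 TPM in controls). In that fit 5.35% of 19106 tested genes were called higher and 2.63% lower. Of the 5 members, 4 (Inha, Amh, Amhr2 and Foxl2) were among the higher ones. Since the members were picked with this contrast known, nothing is read from these counts.

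Genes that mark granulosa cells, other than the members, lay higher in the knockout libraries without passing the threshold. Of 10 markers, all tested, 0 were called over all genes and 8 were higher at an unadjusted p under 0.05, as were 3.70% of tested genes. All 3 knockout libraries lay above both controls for 8 of 10, against 11.9% of tested genes. The median log2 fold change was 1.79, beside -0.02 over all tested genes. This list and those below were chosen with earlier results of these data known, so their counts and medians are a description. Without knockout mouse 1, 5 of the 10 passed the threshold (Esr2, Kctd14, Mro, Nap1l5 and Nr5a2), against 5.35% of tested genes. In that same fit 6 of 8 epithelial markers were called higher. Of 6 mesothelial markers 5 were called lower, against 2.63% of tested genes. The control libraries were themselves unequal: 9 of the 10 markers were lowest in control mouse 2, the library with the lowest Inha, Amh and Fshr.

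Among these markers, Esr2, which encodes estrogen receptor beta, the main estrogen receptor of granulosa cells, reached 1.79 and 3.75 TPM without floxed Esr1 and 8.03, 30.6 and 20.0 TPM with it (log2 fold change 2.32 ± 0.53 SE with an adjusted p of 0.193). Nr5a2, a nuclear receptor of granulosa and luteal cells, measured 1.61 and 10.6 TPM in control libraries against 16.7, 45.4 and 45.8 TPM in the knockout libraries (log2 fold change 2.62 ± 0.68 SE with an adjusted p of 0.214). Neither overlapped between groups, and in both knockout mouse 1 stood nearest to the controls. Hsd17b1, whose enzyme converts estrone to estradiol, had 3.55 and 10.2 TPM in its control libraries, and 21.8, 21.0 and 38.6 TPM in the knockout ones (adjusted p 0.192). Nr5a1, the SF-1 gene given above, had a log2 fold change of 1.15 with an adjusted p of 0.292. For 2 of the 10 markers the groups overlapped. Ihh, which encodes the signalling protein Indian hedgehog, had all knockout libraries between the controls, at 3.88 to 4.16 TPM against 1.15 and 4.80 TPM (log2 fold change 0.52, adjusted p 0.573, and -0.19 on the log2 scale without control mouse 2). Cyp19a1, the aromatase gene, reached 0.96 and 2.00 TPM without floxed Esr1 and 7.33, 1.58 and 16.2 TPM with it. Knockout mouse 2, with the highest Amh and Fshr, thus had Cyp19a1 between the controls (log2 fold change 1.57, adjusted p 0.396).

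The genes whose pattern was most like each member's were found by the distance between log2(TPM + 1) values, each centred on the gene's mean over the 5 libraries. Nearest to Inha were Prss35, Nap1l5 and Nr5a2, at distances of 0.26, 0.34 and 0.58 on the log2 scale, and Nap1l5 and Nr5a2 are in the granulosa list. Prss35, of the serine protease family, measured 1.90 and 11.3 TPM in control libraries against 18.8, 34.2 and 48.0 TPM in the knockout libraries. Amh was the 10th nearest gene to Inha and Fshr the 24th, whereas Foxl2 and Amhr2 stood at ranks 370 and 480. The nearest genes to Amh were Hhip, Frem1 and Thbs4, at distances of 0.43, 0.46 and 0.53, and Fshr was the 8th.

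For Fshr the nearest genes were Cyp26b1, Gm10416 and Gstm7, at 0.26, 0.27 and 0.32. Seen from Fshr, Amh stood at rank 42, Amhr2 at 155, Foxl2 at 370 and Inha at 635, so Inha was the farthest member. Amhr2 was nearest to Rbbp7, Abat and Carhsp1, at 0.11, 0.17 and 0.21. Rbbp7, which encodes a histone-binding protein, had 142 and 118 TPM in its control libraries, and 271, 294 and 254 TPM in the knockout ones. Foxl2 was nearest to Spsb1, Clu and Gstm1, at 0.10, 0.15 and 0.16. Seen from Amhr2, Foxl2 stood at rank 452, and seen from Foxl2, Amhr2 stood at rank 1892. Gstm1 and Gstm7 belong to a family of similar genes, so their levels are uncertain. A small distance over 5 libraries is a description and also reflects how little a gene varies.

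The steroid-producing theca and luteal cells are the neighbours of granulosa cells in the ovary. Their 7 markers had 6 tested, of which 0 were called, with a median log2 fold change of 0.42. Cyp17a1, the androgen-synthesis gene of theca cells, reached 2.34 and 5.72 TPM without floxed Esr1 and 35.2, 72.4 and 38.2 TPM with it (log2 fold change 3.31 ± 0.41 SE with an adjusted p of 0.0858). It was named after its values were seen, and it passed the threshold without knockout mouse 1 (log2 fold change 3.50, adjusted p 0.0161). The other genes of this list did not share that pattern. Cyp11a1, whose enzyme starts steroid synthesis from cholesterol, measured 5.37 and 53.5 TPM in control libraries against 18.6, 34.0 and 30.3 TPM in the knockout libraries, so control mouse 3 was the highest. Its log2 fold change of 0.58 (adjusted p 0.746) was -0.97 without control mouse 2, and the ratio of group means was 0.94. Hsd3b1 lay between 105 and 188 TPM in the knockout libraries, with controls of 9.0 and 115 TPM, and belongs to a family of closely similar genes. Star, the cholesterol carrier gene, had 24.5 and 33.6 TPM in its control libraries, and 20.4, 22.4 and 13.1 TPM in the knockout ones, below both controls. The summed level of the list was 74.2 and 259 TPM in the controls and 219, 325 and 320 TPM in knockout mice 1, 2 and 3.

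Oocyte markers were low throughout and mostly had lower values in the knockout libraries, without passing the threshold. Of 10 genes, 8 were tested and 0 called, the median log2 fold change was -0.69, and 7 of the 8 lay below both controls in every knockout library, as did 21.9% of all tested genes. Zp3, a zona pellucida gene, reached 3.12 and 3.33 TPM without floxed Esr1 and 1.98, 2.62 and 1.27 TPM with it. Gdf9, an oocyte growth factor gene, measured 5.20 and 3.44 TPM in control libraries against 2.62, 1.90 and 1.37 TPM in the knockout libraries. The list summed to 23.1 and 23.2 TPM in the controls and to 13.1, 12.6 and 7.61 TPM in knockout mice 1, 2 and 3. Of 7 genes of cumulus expansion, the matrix response of the cells around the ovulated oocyte, 6 were tested and 0 called (median log2 fold change -0.66), and 3 lay below both controls in all knockout libraries. Without knockout mouse 1, Tnfaip6 passed as lower (log2 fold change -1.22), and so did the oocyte gene Padi6 (-1.53).

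**Figure D3:**
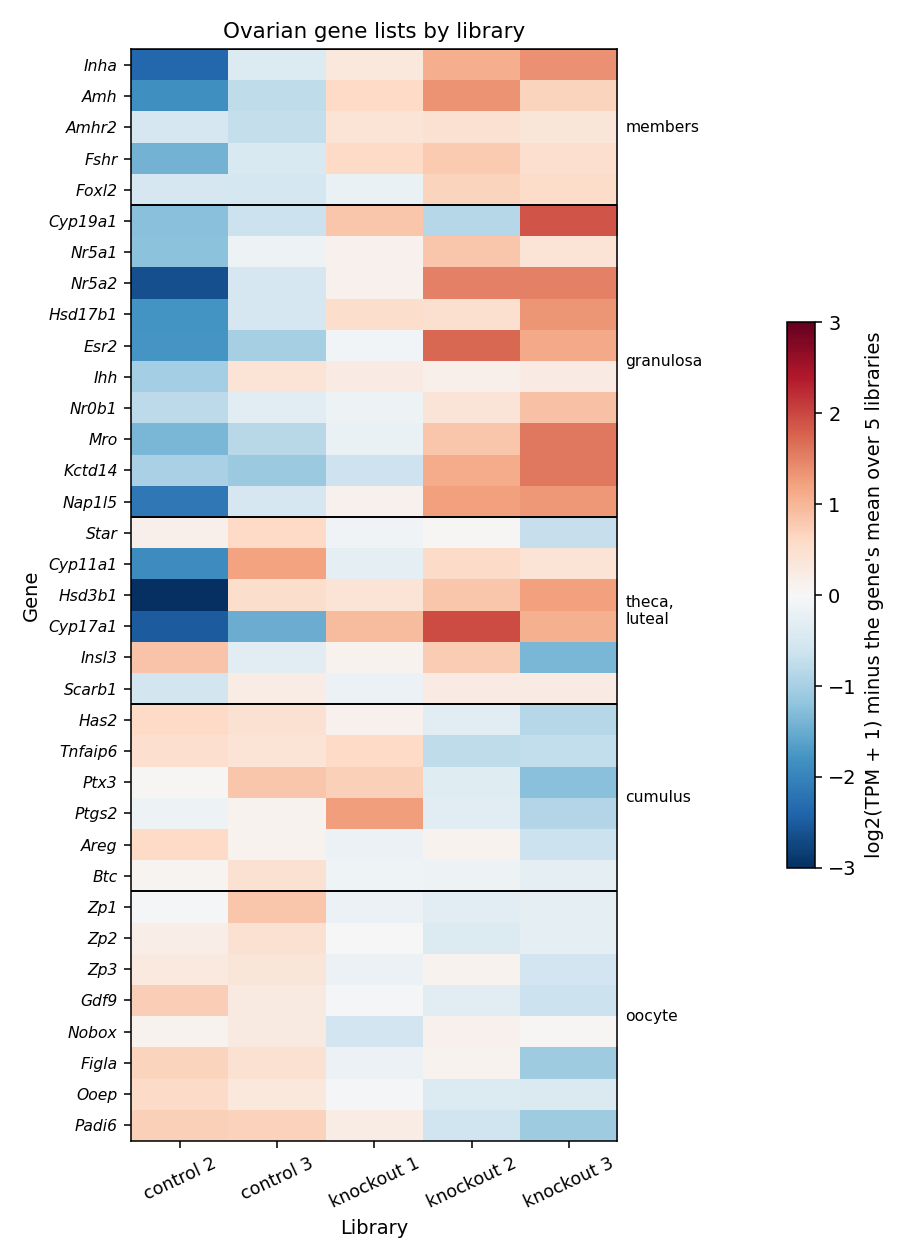
Tested genes of 5 ovarian lists (rows) in each library (columns), coloured by log2(TPM + 1) minus the gene's own mean over the 5 libraries. Granulosa markers are lowest in control mouse 2 (9 of 10 genes) and highest in knockout mouse 3 (7 of 10), while 7 of 8 oocyte markers lie below both controls in every knockout library.

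The partners of the inhibin alpha subunit and the activin pathway were measured as 15 genes, 13 of them tested and 0 called, with a median log2 fold change of 0.07. Inhba, the activin beta A subunit gene, had 4.66 and 12.4 TPM in its control libraries, and 31.3, 7.02 and 52.6 TPM in the knockout ones. Inhbb, the beta B subunit gene, reached 28.0 and 12.2 TPM without floxed Esr1 and 47.8, 13.4 and 25.1 TPM with it. For both, knockout mouse 2 lay between the controls, although its Inha was at 111 TPM (log2 fold changes 1.46 and 0.43, adjusted p 0.438 and 0.715). Fst, which encodes the activin-binding protein follistatin, measured 26.1 and 29.8 TPM in control libraries against 42.5, 47.0 and 58.9 TPM in the knockout libraries, without overlap (log2 fold change 0.79 ± 0.20 SE with an adjusted p of 0.20, and 0.0325 without knockout mouse 1). Fstl3, a related binding protein gene, overlapped between groups, at 24.0 to 25.8 TPM in the controls and 18.2 to 32.2 TPM in the knockout libraries.

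Among receptors of activin and inhibin the groups mostly overlapped. The type II receptor gene Acvr2a ranged from 24.4 TPM in knockout mouse 1 to 52.0 TPM in knockout mouse 3, with both controls inside that range (log2 fold change 0.13, adjusted p 0.865). Acvr2b was between 4.70 and 5.77 TPM and the type I receptor gene Acvr1b between 16.6 and 22.1 TPM over all libraries. Tgfbr3, which encodes betaglycan, the inhibin coreceptor, reached 183 and 139 TPM without floxed Esr1 and 225, 136 and 131 TPM with it. Tgfbr3l, a related inhibin coreceptor gene, was lower than both controls (13.8 and 12.8 TPM) in every knockout library, at 9.79 and 9.69 TPM in knockout mice 2 and 3 and nearer to the controls in mouse 1, without passing the threshold (log2 fold change -0.32, adjusted p 0.489). Igsf1, proposed as an inhibin-binding protein gene, also lay below both controls but was too low to be tested.

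Components downstream of Amhr2 were detected in every library, and of 12 genes 0 were called (median log2 fold change 0.22). The type I receptor gene Bmpr1a measured 105 and 103 TPM in control libraries against 124, 129 and 122 TPM in the knockout libraries (log2 fold change 0.27, adjusted p 0.445). Bmpr1b, another type I receptor gene, had 13.2 and 16.8 TPM in its control libraries, and 17.3, 47.0 and 53.7 TPM in the knockout ones. Mouse 1 was close to control mouse 3, and the adjusted p of 0.344 became 0.0140 without that mouse, with a log2 fold change of 1.69. Acvr1, the third type I receptor gene, ran from 30.1 to 37.2 TPM. Smad1 and Smad5 ran from 40.6 to 57.0 TPM and Smad9 from 3.71 to 6.44 TPM. Of the Id genes, known targets of BMP-type signalling, Id2 reached 158 and 205 TPM without floxed Esr1 and 352, 242 and 249 TPM with it (log2 fold change 0.62, adjusted p 0.338). Id1 and Id3 overlapped between groups.

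Of 6 genes tied to the response of Müllerian mesenchyme to AMH, 0 were called (median log2 fold change -0.24). Wif1, a secreted Wnt inhibitor gene induced by AMH in the fetal male duct, measured 1.83 and 2.67 TPM in control libraries against 1.04, 0.90 and 1.03 TPM in the knockout libraries, below both controls where Amh and Amhr2 were higher. Sp7, the osterix gene, stayed between 1.07 and 1.56 TPM. In the list of gonadotropin receptors and cyclic AMP signalling, 0 of 9 were called (median log2 fold change 0.19). Prkar2b, a regulatory subunit gene of protein kinase A, was named after its values were seen, as were Ihh, Tgfbr3l, Igsf1, Crem, Pde4d, Pde8a, Rspo1, Gata6 and Lum. It had 14.9 and 27.2 TPM in its control libraries, and 53.9, 80.3 and 107 TPM in the knockout ones (log2 fold change 1.89 ± 0.35 SE with an adjusted p of 0.143, and 0.0203 without knockout mouse 1). Of the 9 genes, 3 lay above both controls in every knockout library and 3 below, beside 11.9% and 21.9% of all tested genes. The lower ones were Crem, a cyclic AMP-responsive transcription factor gene, and the phosphodiesterase genes Pde4d and Pde8a, with log2 fold changes of -0.69, -0.56 and -0.60 (adjusted p 0.293, 0.411 and 0.278). Prlr, the prolactin receptor gene, ran from 17.9 to 24.9 TPM.

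A list of transcription factors shared by ovary and Müllerian tissues, which also holds the secreted Wnt pathway genes Rspo1 and Wnt4, was mixed. Of its 12 genes, 11 were tested and 0 called, with a median log2 fold change of 0.07. Gata4, a partner of SF-1 in gonadal cells, reached 9.20 and 11.4 TPM without floxed Esr1 and 16.5, 41.3 and 29.4 TPM with it (log2 fold change 1.33, adjusted p 0.228, and 0.0174 without knockout mouse 1). Wt1, expressed in granulosa cells and in oviductal stroma, measured 141 and 146 TPM in control libraries against 175, 218 and 223 TPM in the knockout libraries (adjusted p 0.317, and 0.0326 without knockout mouse 1). In the other direction, Rspo1, which encodes an activator of Wnt signalling, had 122 and 121 TPM in its control libraries, and 83.3, 75.5 and 56.3 TPM in the knockout ones (log2 fold change -0.78, adjusted p 0.214, and 0.0334 without knockout mouse 1). Gata6, a relative of Gata4, was also below both controls in every knockout library (log2 fold change -0.53, adjusted p 0.258, and 0.0440 without knockout mouse 1). Without that mouse 4 genes of the list passed as higher (Gata4, Nr2f2, Sox9 and Wt1) and 3 as lower (Gata6, Rspo1 and Wnt4). Of all tested genes in that fit, 5.35% were called higher and 2.63% lower. In knockout mouse 1 itself Wnt4 was at 39.0 TPM, above both controls (32.7 and 34.9 TPM). It was at 19.9 and 19.3 TPM in knockout mice 2 and 3.

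Markers of other cell types also differed between these libraries. All 6 mesothelial markers were below both controls in every knockout library, as were 21.9% of all tested genes. The 6 markers summed to 607 and 487 TPM in the controls and to 186, 283 and 303 TPM in knockout mice 1, 2 and 3. Msln, the mesothelin gene, had 123 and 99.6 TPM in its control libraries, and 30.4, 45.2 and 44.4 TPM in the knockout ones (log2 fold change -1.47, adjusted p 0.117, and 0.0140 without knockout mouse 1). Upk3b, another mesothelial gene, had a log2 fold change of -0.95 with an adjusted p of 0.197, and 0.0351 without knockout mouse 1. The 8 epithelial markers summed to 2977 and 3256 TPM in the controls and to 2109, 11970 and 13060 TPM in knockout mice 1, 2 and 3. Epcam reached 75.7 and 99.3 TPM without floxed Esr1 and 70.8, 152 and 218 TPM with it. Of the 8, 0 were called over the 5 libraries, and 6 were called higher without knockout mouse 1 (Cdh1, Epcam, Krt18, Krt8, Ovgp1 and Pax8), with a list median of 1.02 and an adjusted p of 0.0412 for Epcam. Of all tested genes in that fit, 5.35% were called higher. Ovgp1 made up most of these sums, at 1522, 10655 and 11258 TPM in knockout mice 1, 2 and 3. In knockout mouse 1 the epithelial sum was below both controls. Of its markers, Krt18, Pax8 and Foxj1 lay between the controls there, and the rest were below both.

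The 8 stromal markers summed to 23681 and 19141 TPM in the controls and to 16205, 12711 and 14694 TPM in knockout mice 1, 2 and 3, with 0 called. Lum, which encodes the matrix proteoglycan lumican, had 2383 and 1740 TPM in its control libraries, and 426, 448 and 671 TPM in the knockout ones (log2 fold change -2.01, adjusted p 0.0978, and 0.0209 without knockout mouse 1). Pdgfra was between 165 and 298 TPM over all libraries. The granulosa markers summed to 57.5 and 90.7 TPM in the controls and to 144, 345 and 446 TPM in knockout mice 1, 2 and 3, and none of the 10 was at 0 in any library. The part of granulosa, theca, mesothelial, epithelial or stromal cell shares in the levels of Inha, Amh, Amhr2, Fshr and Foxl2 was not tested.

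**Figure D4:**
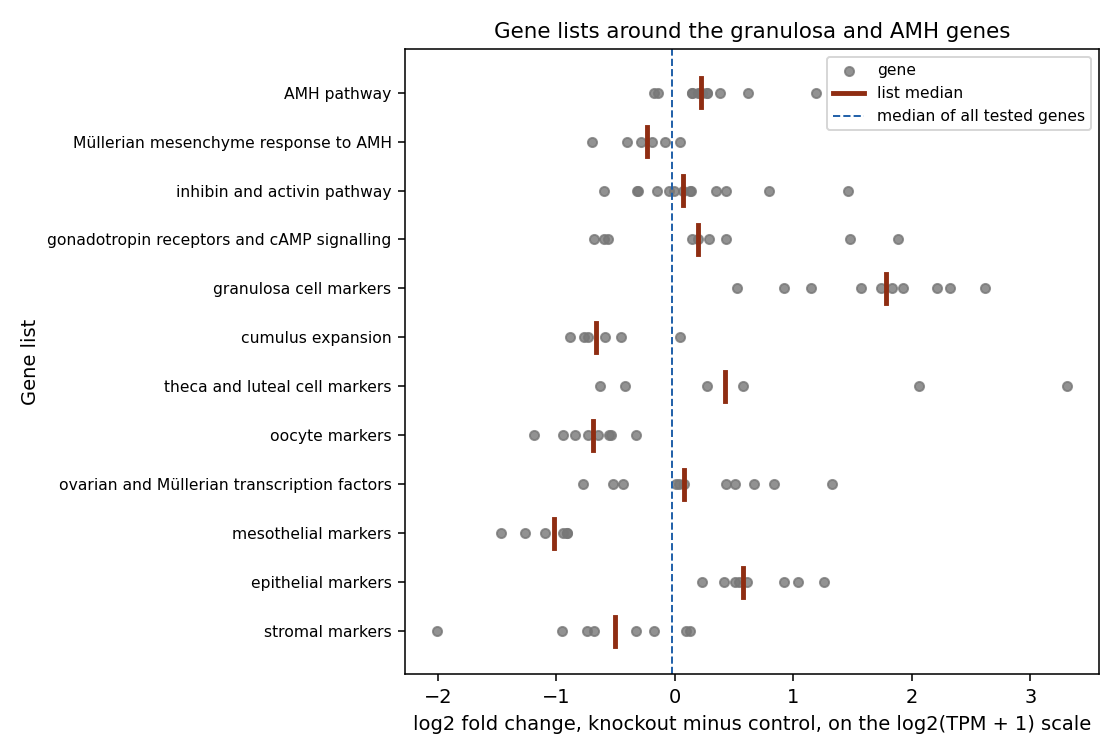
Log2 fold change (knockout minus control, log2(TPM + 1) scale, 5 libraries) of each tested gene in 12 lists, with list medians as red bars and the median of all tested genes as a dashed line at -0.02. The granulosa list has a median of 1.79, the mesothelial list -1.02, and the AMH and inhibin pathway lists lie near the dashed line at 0.22 and 0.07.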

How the data were processed

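RNA was measured in 5 libraries, 2 controls and 3 labelled knockout, grouped by the labels' titles. Per the labels' protocols, total RNA of sorted cells went into a low-input SMARTer mRNA kit. The authors deposited TPM per gene. The table's name says STAR, and the submitters' processing notes name mm10. The counter, annotation and strand setting are not given in the sources used here. Of 23857 listed genes, 96.6% matched GENCODE M21.

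Values were taken as log2(TPM + 1) and fitted over all genes with limma 3.58.1 (R 4.3.3, lmFit and eBayes with trend, genotype as the only term, two-sided). Genes with at least 1 TPM in at least 2 libraries were tested, with Benjamini-Hochberg adjustment and a threshold of 0.05. A fold change on this scale understates that of low genes. Nothing in the labels says more of replicates than separate mice.

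TPM keeps no depth, so reads were estimated from steps of low values in single-exon genes and the longest transcript (Python 3.11.15). Both methods were tested on simulated data. A first version of the step estimate took steps of 2 reads for steps of 1 in some simulated libraries, so it was revised until it recovered the simulated steps in every simulated library. The estimates for the 5 libraries did not change with the revision. Reads are approximate and are not independent molecules.

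The members and the 12 lists were chosen with earlier results of these data known. Named genes are the members, a preset choice from the lists, list genes past the threshold, neighbours of the members and the 3 genes nearest each member. Alternatives were a pseudocount of 0.1, other filters, quantile normalization, leaving out Rpph1 and Rn45s, the mouse number as a block, and each library left out.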

Additional observations from a re-analysis of the deposited data

How the results depend on the processing

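All 5 members had a positive log2 fold change in every alternative run. With a pseudocount of 0.1 that of Amhr2 was 1.10 and that of Fshr 2.07, and with quantile normalization Fshr was at 1.93. Fshr fell under a mean of 5 TPM and has no value there. Leaving out each library in turn gave 1.35 to 3.28 for Inha, 1.64 to 2.70 for Amh, 0.92 to 1.12 for Amhr2, 1.08 to 2.04 for Fshr and 0.69 to 1.12 for Foxl2. The extremes of Inha, Amh, Amhr2 and Fshr came from leaving out a control, where the lone control is assumed to vary like the knockout libraries.

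The counts of genes called, 2 higher and 3 lower, were both 0 with a pseudocount of 0.1 and when a mean of 5 TPM was required. The higher count was 1 without any filter and 0 with quantile normalization, and the lower count was 5 without Rpph1 and Rn45s. Without 1 library they ran from 0 to 1022 higher and from 0 to 502 lower, with the high values without knockout mouse 1. The cause was not tested. The mouse number as a replicate block, which leaves mice 2 and 3 of each group, gave 1165 higher and 693 lower, and Inhbb at -0.014. As without knockout mouse 1, no knockout library with Esr1 below both controls then remained. Across genes, same-numbered libraries deviated from their group means with correlations of -0.06 (mouse 2) and -0.07 (mouse 3). With 2 controls, their deviations from the group mean mirror each other. These values therefore cannot tell whether mice of the same number were matched.

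Signs also changed for Inhbb without control mouse 3 (-0.14) and without knockout mouse 1 (-0.014), for Acvr2a without knockout mouse 2 (-0.017) or mouse 3 (-0.064), and for Cyp11a1 (-0.97) and Ihh (-0.19) without control mouse 2. With each library left out in turn, Inhbb ran from -0.14 to 1.00, Acvr2a from -0.064 to 0.46, Cyp11a1 from -0.97 to 2.13 and Ihh from -0.19 to 1.24. Depth limits Fshr and Amh most, with about 26.1 and 39.3 reads in control mouse 2.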
